A study of Mus musculus with 8 samples.

Results

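The interferon response genes are the transcripts that cells raise when a type I interferon binds its receptor, and 36 of them were followed here in CD4 T cells cultured toward the Th17 fate. They were chosen by name, with earlier results of these data known, so the counts below describe this list and do not test it. A gene was used if the array carried a probe set that the platform table assigns to its symbol alone, and the brightest such probe set stood for it, which gave 34 of the 36 genes among 11128 genes tested in all. The probe set of Isg15 is shared with a second symbol and Ifi44 had no probe set assigned to it, so neither was analysed here. Log2 signals of total RNA were measured on 8 one-colour mouse gene arrays, 1 array per sample.

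The arrays came from 2 experiments, and in both the labels describe naive CD4+ T cells stimulated through CD3 and CD28 and cultured with IL-1, IL-6 and IL-23. RORγt-deficient cells came from RORgt (-/-) mice and were set against wild-type cells of their own experiment, with 2 arrays in each group. RORγt is the nuclear receptor that directs Th17 differentiation. SRC-3-deficient cells came from mice labelled SRC-3 (f/f), with no Cre driver named, and were set against wild-type cells of the second experiment, again with 2 arrays in each group. SRC-3 is a coactivator recruited by nuclear receptors. The labels give no age, strain or culture time and do not say whether the 2 biological replicates of a group came from separate mice, so a p-value reflects only how these samples vary, which may be technical variation. The treatment text names wild-type and SRC-3-deficient cells, and the RORγt arrays carry the same text.

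As background, type I interferon acts through the receptor chains IFNAR1 and IFNAR2 and the kinases JAK1 and TYK2, which phosphorylate STAT proteins. STAT2 then joins IRF9 in the complex ISGF3, which binds the interferon-stimulated response element in the promoters of many interferon-stimulated genes. The products of the genes described here degrade viral RNA, block translation, trap virions, sense foreign nucleic acid, load peptides on MHC class I, or damp the response itself, and in T cells type I interferon also shapes survival and differentiation.

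The arrays held the labels' cell type, and several samples stood apart on points that touch the results. The 6 measured T cell markers averaged between 12.83 and 13.01 in log2 signal on every array. The array median lay between 7.76 and 7.93. Ncoa3, the gene of SRC-3, had log2 signals of 11.15 and 10.97 in SRC-3-deficient cells, against 11.76 and 11.53 on the SRC-3 wild-type arrays (limma adjusted p = 0.0567). The labels do not say which part of the gene was removed. Il17a had 7.52 and 7.16 on the RORγt-deficient arrays, against 11.63 and 11.27 on the RORγt wild-type arrays (limma adjusted p = 4.86e-05). Xist, which marks female cells, was at 6.37 and 6.08 on the RORγt-deficient arrays, against 12.55 and 12.76 on their wild-type arrays, so sex and genotype cannot be told apart in that comparison. In the other experiment Xist was at 7.10 on SRC-3-deficient replicate 1 and between 13.52 and 13.65 on the remaining arrays. The part of sex in the values below was not tested.

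The 6 promoter stretches below, of 7 members, show members with and without the core of the response element. Ifit1, Rsad2, Stat2 and Oas3 hold it and had both RORγt-deficient arrays above both wild-type arrays. Bst2 holds it with overlapping groups. The stretch shared by Tap1 and Psmb9 lacks it, and both genes had both RORγt-deficient arrays above both wild-type arrays. Both deficient arrays lay above both wild-type arrays for 31 of the 34 members and for 35.8% of all genes. These 7 members are examples, and whether the core goes with the change was not tested. The sequences are from RefSeq, assembly GRCm38.p6, written 5′ to 3′ on the strand of the named gene. Capitals mark each match to the core, GAAA followed by any 2 bases and a second GAAA, searched on both strands with overlapping matches kept. Positions are counted back from the annotated start of the gene.
Ifit1, chr19:34640729-34640888, plus strand, with matches starting at -104 and -85: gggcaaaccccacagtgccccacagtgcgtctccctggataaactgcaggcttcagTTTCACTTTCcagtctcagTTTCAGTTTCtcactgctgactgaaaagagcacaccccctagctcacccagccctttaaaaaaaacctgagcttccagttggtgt
Rsad2, chr12:26456453-26456612, minus strand, with a match starting at -120: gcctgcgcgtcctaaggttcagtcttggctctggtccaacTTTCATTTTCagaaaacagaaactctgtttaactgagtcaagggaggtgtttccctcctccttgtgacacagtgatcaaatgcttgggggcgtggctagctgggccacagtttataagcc
Stat2, chr10:128270248-128270407, plus strand, with a match starting at -222: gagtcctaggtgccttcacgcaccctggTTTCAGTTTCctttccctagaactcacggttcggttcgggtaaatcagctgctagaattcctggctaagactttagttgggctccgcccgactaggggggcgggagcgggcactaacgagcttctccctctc
Oas3, chr5:120777690-120777849, minus strand, with a match starting at -75: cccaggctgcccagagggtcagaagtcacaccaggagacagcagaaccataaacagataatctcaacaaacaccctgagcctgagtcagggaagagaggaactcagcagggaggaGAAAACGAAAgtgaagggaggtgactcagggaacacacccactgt
Bst2, chr8:71537473-71537632, minus strand, with overlapping matches starting at -130 and -124: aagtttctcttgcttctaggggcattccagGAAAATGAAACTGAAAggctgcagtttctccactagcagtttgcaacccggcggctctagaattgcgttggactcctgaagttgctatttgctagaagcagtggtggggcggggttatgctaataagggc
Tap1 and Psmb9, chr17:34187331-34187555, plus strand, the whole interval of 225 bases between the starts of these 2 divergent genes, with no match: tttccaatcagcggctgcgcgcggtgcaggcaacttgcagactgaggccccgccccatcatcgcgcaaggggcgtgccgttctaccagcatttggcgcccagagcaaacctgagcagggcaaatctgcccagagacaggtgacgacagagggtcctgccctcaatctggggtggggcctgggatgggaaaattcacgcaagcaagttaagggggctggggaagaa

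A promoter window of 300 bases, from 250 before to 50 after the start, was found by symbol for 25 of the 34 members. The core was present in 11 of these 25 genes (44.0%) and in 1079 of 27025 genes with a window (3.99%). Of the 9 members with a window that passed the test in RORγt-deficient cells, described below, 3 held it, as did 8 of the 16 that did not pass. The site of activated STAT dimers, TTC and GAA around any 3 bases, was present in 7 of the 25 members (28.0%) and in 9.55% of all genes with a window. A match is a description of letters in this window and not a site of binding.

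Interferon response genes were higher in RORγt-deficient than in wild-type Th17 cells, and 13 of the 34 rose past an adjusted p of 0.05 (limma, Benjamini-Hochberg over all 11128 genes), while none fell. Over all genes, 10.0% rose and 9.37% fell in this comparison. The largest rises among the 13 were 2.70-fold for Mx1, 2.49-fold for Oasl2 and 2.09-fold for Parp12. Other fold changes in this report are on the log2 scale. Both deficient arrays lay above both wild-type arrays for 31 of the 34 members, against 35.8% of all genes, and 26 rose at an unadjusted p of 0.05, against 18.2%. The median log2 fold change of the 34 was 0.73, ranging from -0.12 for Oas1a to 1.58 for Ifit3, beside a median of 0.00 over all genes. A fold change was above 0 for 31 members and for 50.4% of all genes. These counts include Oas2, Rtp4 and Samd9l, which reached the signal needed for testing on deficient arrays alone. In bulk RNA, more cells carrying a transcript and more RNA per cell cannot be told apart.

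The count of 13 depends on single arrays. It was 1 (Ifit2) without RORγt-deficient replicate 1 or without either RORγt wild-type array, 22 without either SRC-3 wild-type array, which enter only through the shared spread, and 28 when the 4 arrays of this experiment were fitted alone (limma). The wild-type pair differed little over the members (median SD 0.03), and log2 fold changes held without either array of it. Mx1 gave a log2 fold change of 1.52 without replicate 1 and 1.34 without replicate 2, against 1.43 with all arrays. Tap1 gave 0.55 and 0.54, against 0.54 with all arrays. Without RORγt-deficient replicate 1 the log2 fold changes of all 13 were smaller, at 1.06 for Mx1 and 0.48 for Tap1. Ddx58 gave 0.37 there, against 0.63 with all arrays, Herc6 0.41 against 0.72 and Oasl2 0.84 against 1.32. Zbp1 changed less, with 0.77 against 0.83. Calls over all genes fell too, to 486 without RORγt-deficient replicate 1 and to 626 and 558 without wild-type replicate 1 or 2, against 2157.

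**Figure D1:**
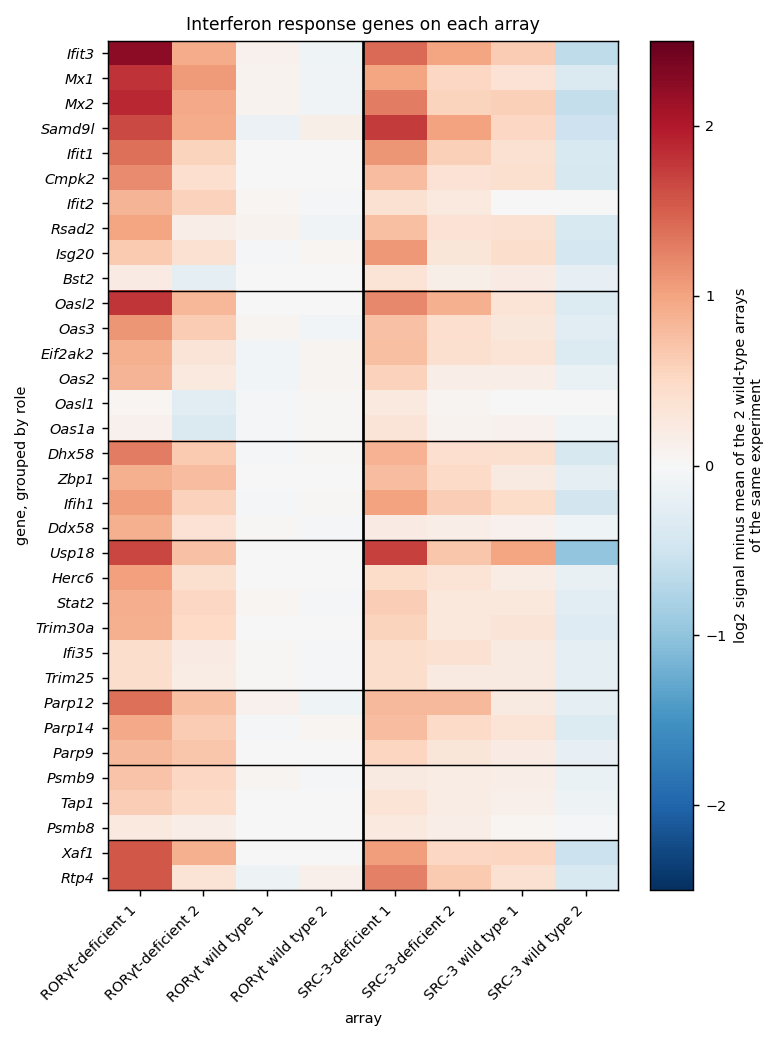
Heat map of the 34 measured interferon response genes (rows, grouped by role) on the 8 arrays (columns). Colour gives the log2 signal minus the mean of the 2 wild-type arrays of the same experiment, so a zero of its own applies left and right of the thick line. RORγt-deficient replicate 1 and SRC-3-deficient replicate 1 carry the highest signal of their experiment for all 34 genes, and SRC-3 wild type replicate 2 the lowest for 33.

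In SRC-3-deficient cells all 34 members had a log2 fold change above 0, as did 57.2% of all genes. None passed an adjusted p of 0.05 in the limma fit, which does not pair arrays by replicate number. A fit with the replicate number as a block is given at the end. Over all genes, 0.189% rose past that threshold. The median log2 fold change of the members was 0.57, beside 0.02 over all genes, with the highest values for Samd9l (1.38), Usp18 (1.21) and Ifit3 (1.20). Samd9l, Oas2 and Rtp4 reached the signal needed for testing on deficient arrays alone, so a higher signal there was a condition of their being tested. The counts here include these 3 genes. Of the 34, 16 were higher at an unadjusted p of 0.05 by limma, against 8.20% of all genes, and the lowest adjusted p among them was 0.155, for Zbp1. Both deficient arrays lay above both wild-type arrays for 25 members, against 23.0% of all genes. This was also the case in both experiments for 24 members, against 12.6% of all genes.

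The size of this difference depends on single arrays. SRC-3 wild-type replicate 2 had the lowest signal for 33 of 34 members, and the median log2 fold change was 0.22 without it and 0.89 without wild-type replicate 1. The median was 0.37 when SRC-3-deficient replicate 1, the array with the male level of Xist, was left out. SRC-3-deficient replicate 1 was above both wild-type arrays for all 34 members, by a median of 0.41 over replicate 1 and 1.03 over replicate 2. SRC-3-deficient replicate 2, with the female level, was above wild-type replicate 1 for 25 of 34 members by a median of 0.08, and above wild-type replicate 2 for all 34 by a median of 0.72. Over all genes the shares for deficient replicate 2 were 61.1% and 58.4%.

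The members moved together between arrays of 1 group as well. Replicate 1 exceeded replicate 2 for 34 of 34 members in RORγt-deficient cells (median difference 0.50 in log2 signal), for 34 of 34 in SRC-3-deficient cells (0.31) and for 33 of 34 in SRC-3 wild-type cells (0.61). In RORγt wild-type cells it did so for 19 of 34, with a median difference of 0.02. The shares over all genes lay between 42.1% and 49.2%, with median differences between -0.03 and 0.00. Replicate numbers have no order, so these differences describe the arrays. The median SD of a pair was 0.35 over the members and 0.04 over all genes in RORγt-deficient cells, 0.22 and 0.07 in SRC-3-deficient cells, and 0.43 and 0.07 in SRC-3 wild-type cells. In RORγt wild-type cells it was 0.03 over the members and 0.05 over all genes. Apart from those wild-type cells, the interferon response genes thus varied more between arrays of a group than the median gene.

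Replicate differences were alike across members in 3 of the 4 groups. Across the 34 members, the replicate differences of the SRC-3-deficient and SRC-3 wild-type pairs correlated with r = 0.84 (0.54 across all genes). Those of the RORγt-deficient pair correlated with r = 0.64 with the SRC-3 wild-type pair (-0.11 across all genes) and 0.55 with the SRC-3-deficient pair (-0.13 across all genes). Those of the RORγt wild-type pair did not follow the others, with r = 0.04 against the RORγt-deficient, 0.01 against the SRC-3 wild-type and -0.28 against the SRC-3-deficient pair. These correlations are across genes, which share arrays and are not independent, and they are given as a description.

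**Figure D2:**
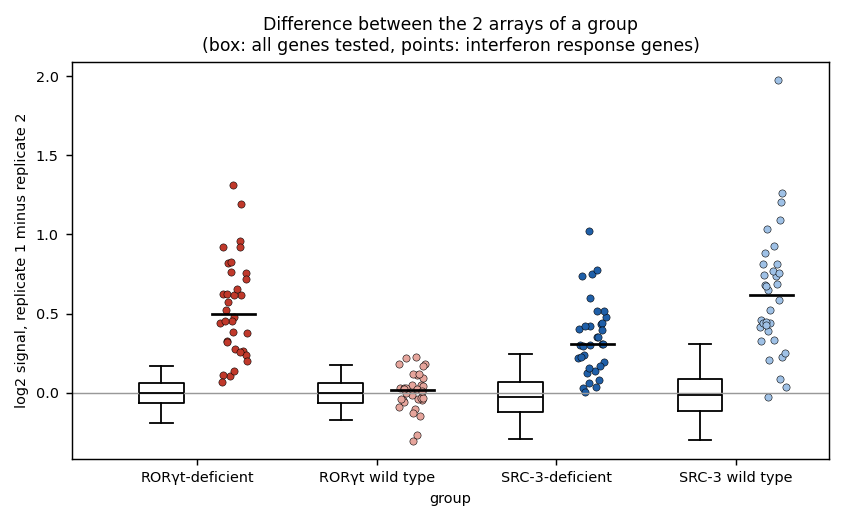
Log2 signal of replicate 1 minus replicate 2 in each group. Boxes show the quartiles of all 11128 genes with whiskers at the 5th and 95th percentiles, points show the 34 interferon response genes and black bars their medians. The points lie at or above 0 in RORγt-deficient and SRC-3-deficient cells, reach 1.98 (Usp18) in SRC-3 wild-type cells, and straddle 0 in RORγt wild-type cells.

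Among the antiviral effectors, 2 of 10 rose in RORγt-deficient cells, where 10.0% of all genes rose, a gap of 1 gene in a list of 10. None passed in SRC-3-deficient cells, where 0.189% of all genes rose. Ifit2, whose product binds viral RNA and blocks its translation, reached 7.93 and 7.67 in log2 signal in RORγt-deficient cells, against 7.14 and 7.03 in RORγt wild-type cells (log2 fold change 0.71, SE 0.10, limma adjusted p = 0.00428). It was the call that no alternative removed where the gene was tested. In the other experiment it had 8.53 and 8.39 on the SRC-3-deficient arrays, against 8.17 and 8.13 in wild-type cells (0.30, SE 0.10, adjusted p = 0.268), without overlap. In the RORγt experiment it was dim, and only deficient replicate 1 exceeded 7.85, the level that a gene had to reach on 2 of the 8 arrays to be tested.

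Mx1, a gene of the dynamin-like GTPase family, had 9.33 and 8.58 on the RORγt-deficient arrays, against 7.61 and 7.43 in wild-type cells (1.43, SE 0.31, adjusted p = 0.0183). Its values were 10.32 and 9.84 on the SRC-3-deficient arrays, against 9.69 and 8.96 in wild-type cells (0.76, SE 0.31, adjusted p = 0.372). The groups did not overlap in either experiment. Mx2, its paralog, had 9.18 and 8.26 in RORγt-deficient cells, against 7.40 and 7.21 in wild-type cells (1.42, adjusted p = 0.0604). In the SRC-3 experiment Mx2 overlapped, with 9.51 and 8.78 in deficient cells, against 8.83 and 7.62 in wild-type cells.

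Ifit1 and Ifit3 had higher fold changes than Ifit2 with a wider spread, and neither passed the test. Ifit1, which binds viral RNA that lacks a host-type cap, had 10.18 and 9.36 in RORγt-deficient cells, against 8.80 and 8.81 in wild-type cells (0.96, SE 0.32, adjusted p = 0.0751), and 10.58 and 10.07 in SRC-3-deficient cells, against 9.86 and 9.09 in wild-type cells (0.85, SE 0.32, adjusted p = 0.343). For Ifit3 the values were 8.82 and 7.51 in RORγt-deficient cells, against 6.69 and 6.47 in wild-type cells (1.58, SE 0.49, adjusted p = 0.0596). They were 9.34 and 8.91 in SRC-3-deficient cells, against 8.55 and 7.29 in wild-type cells (1.20, SE 0.49, adjusted p = 0.374). Neither gene overlapped between groups, and the SE of both exceeded that of Ifit2.

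Samd9l, a restriction factor of poxviruses in mice, had 8.77 and 8.05 in RORγt-deficient cells, against 6.96 and 7.26 in wild-type cells (1.29, SE 0.39, adjusted p = 0.0548). Its SRC-3 experiment values were 8.77 and 8.02 in deficient cells, against 7.54 and 6.51 in wild-type cells (1.38, SE 0.39, adjusted p = 0.214), the highest fold change of any member there. It reached the filter level on the 4 deficient arrays and on no wild-type array. Rsad2, the gene of viperin, gave 0.57 (RORγt, adjusted p = 0.238) and 0.55 (SRC-3, adjusted p = 0.527) on the log2 scale. Cmpk2, the nucleotide kinase gene next to Rsad2, gave 0.80 (adjusted p = 0.112) and 0.57 (adjusted p = 0.512), and Isg20, an RNA exonuclease gene, 0.52 (adjusted p = 0.293) and 0.70 (adjusted p = 0.417). These 3 genes were without overlap in the RORγt experiment and overlapped in the SRC-3 experiment.

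Bst2, which encodes tetherin, the membrane protein that holds budding virions on the cell, was at 10.43 and 9.98 in RORγt-deficient cells, against 10.21 and 10.21 in wild-type cells. Its log2 fold change was -0.01 (SE 0.17, adjusted p = 0.983), and 0.24 (SE 0.17, adjusted p = 0.628) in SRC-3-deficient cells, with values of 10.50 and 10.30, against 10.37 and 9.95 in wild-type cells. The groups overlapped in both experiments, and Bst2 carries the overlapping core matches printed above.

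**Figure D3:**
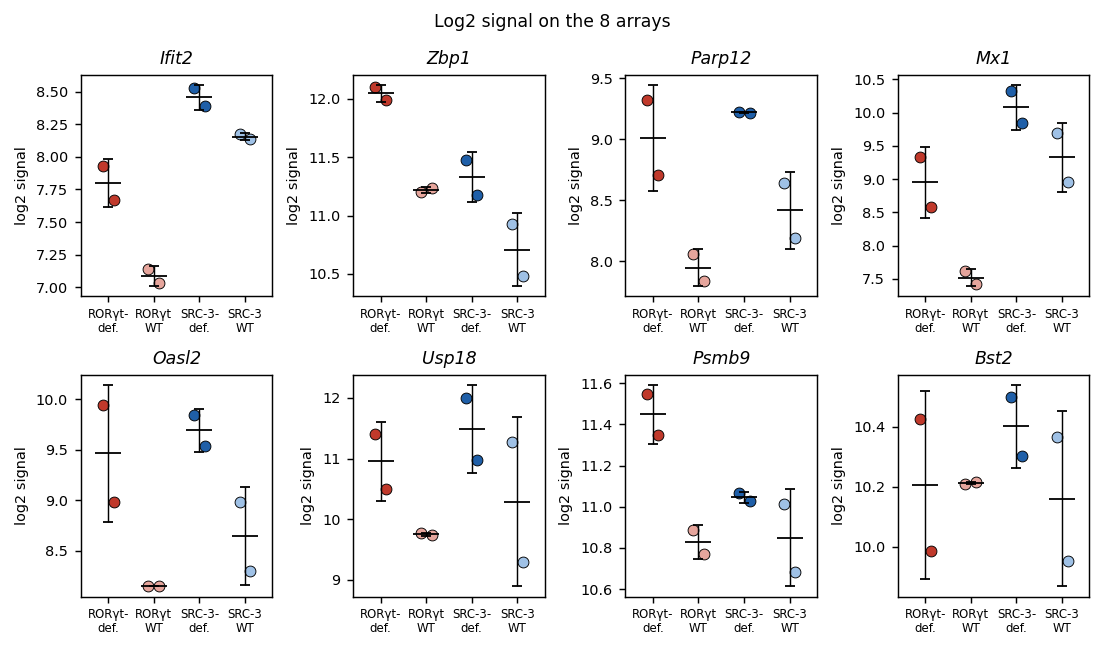
Log2 signal (vertical axes, each with its own range) of 8 interferon response genes. Points are the 2 arrays of a group, black lines the mean and 1 SD. Ifit2, Zbp1, Parp12, Mx1, Oasl2 and Psmb9 have both deficient arrays above both wild-type arrays in each experiment, Usp18 only in the RORγt experiment and Bst2 in neither.

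Genes of the oligoadenylate synthetase family, whose active enzymes make the second messenger of RNase L, differed among themselves. Oasl2 had 9.95 and 8.99 in RORγt-deficient cells, against 8.15 and 8.15 in wild-type cells (1.32, SE 0.32, adjusted p = 0.0271), and 9.85 and 9.54 in SRC-3-deficient cells, against 8.99 and 8.31 in wild-type cells (1.05, SE 0.32, adjusted p = 0.247). Oas3 had 11.85 and 11.38 in RORγt-deficient cells, against 10.80 and 10.68 in wild-type cells (0.87, SE 0.22, adjusted p = 0.0307). Its SRC-3 experiment values were 11.06 and 10.75 in deficient cells, against 10.62 and 10.03 in wild-type cells (0.58, SE 0.22, adjusted p = 0.34). Both genes were without overlap in both experiments.

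Oas2 had 8.60 and 7.99 in RORγt-deficient cells, against 7.67 and 7.82 in wild-type cells, and 8.21 and 7.79 in SRC-3-deficient cells, against 7.79 and 7.46 in wild-type cells. Its fold changes, 0.55 (adjusted p = 0.122) for RORγt and 0.37 (adjusted p = 0.545) for SRC-3, came from dim signals, and the groups did not overlap, although the nearest arrays of the SRC-3 experiment are equal at 2 decimals. Against this, Oasl1 was at 8.80 and 8.47 in RORγt-deficient cells, against 8.73 and 8.78 in wild-type cells (-0.12, SE 0.11, adjusted p = 0.48), and Oas1a at 8.12 and 7.67, against 7.99 and 8.04 (-0.12, SE 0.15, adjusted p = 0.611). In SRC-3-deficient cells these 2 genes gave 0.16 and 0.20. Oas1a, Oasl1 and Bst2 were the members whose RORγt groups overlapped, and the sign of each turned without RORγt-deficient replicate 2. The Oas1 family has near-identical members, so the signal of Oas1a is uncertain. Eif2ak2, the gene of the RNA-activated kinase PKR that stops translation, gave 0.61 (adjusted p = 0.136) and 0.58 (adjusted p = 0.407). It had 10.02 and 9.45 in RORγt-deficient cells, against 9.06 and 9.19 in wild-type cells, and 11.01 and 10.66 in SRC-3-deficient cells, against 10.61 and 9.92 in wild-type cells, without overlap in either.

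Of the 4 sensors of nucleic acid, Zbp1 and Ddx58 rose in RORγt-deficient cells, where 10.0% of all genes rose. Zbp1, which detects Z-form nucleic acid and can start necroptosis, had 12.10 and 11.99 on the RORγt-deficient arrays, against 11.20 and 11.24 in wild-type cells (0.83, SE 0.15, adjusted p = 0.01). On the SRC-3-deficient arrays it had 11.48 and 11.18, against 10.93 and 10.49 in wild-type cells (0.62, SE 0.15, adjusted p = 0.155). Ddx58, the gene of the RNA helicase RIG-I, had 11.35 and 10.83 in RORγt-deficient cells, against 10.49 and 10.44 in wild-type cells (0.63, SE 0.16, adjusted p = 0.0301). It had 10.86 and 10.83 in SRC-3-deficient cells, against 10.77 and 10.54 in wild-type cells (0.19, SE 0.16, adjusted p = 0.706), lower than all members but Oasl1. Each of these comparisons was without overlap.

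Ifih1, the gene of the helicase MDA5, had nearly equal fold changes of 0.81 in both comparisons (SE 0.29, adjusted p = 0.0902 for RORγt and 0.316 for SRC-3). Its values were 10.76 and 10.30 in RORγt-deficient cells, against 9.69 and 9.75 in wild-type cells, and 11.04 and 10.65 in SRC-3-deficient cells, against 10.50 and 9.57 in wild-type cells. Dhx58, the gene of the third helicase LGP2, had 10.83 and 10.20 in RORγt-deficient cells, against 9.52 and 9.56 in wild-type cells, and 10.66 and 10.22 in SRC-3-deficient cells, against 10.20 and 9.38 in wild-type cells. Its fold changes were 0.98 (SE 0.29, adjusted p = 0.0548) for RORγt and 0.65 (SE 0.29, adjusted p = 0.416) for SRC-3. All 4 sensors had both deficient arrays above both wild-type arrays in each experiment, as did 12.6% of all genes.

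In the signalling and feedback group of 6 measured genes, Stat2 and Herc6 rose in RORγt-deficient cells, where 10.0% of all genes rose. Stat2, a subunit of ISGF3 itself, had 11.73 and 11.35 in RORγt-deficient cells, against 10.87 and 10.78 in wild-type cells (0.72, SE 0.20, adjusted p = 0.0418), and 11.85 and 11.50 in SRC-3-deficient cells, against 11.49 and 10.97 in wild-type cells (0.44, SE 0.20, adjusted p = 0.416). Herc6, the main ISG15 ligase of mice, had 10.37 and 9.74 in RORγt-deficient cells, against 9.31 and 9.35 in wild-type cells (0.72, SE 0.20, adjusted p = 0.0423), and 11.10 and 10.97 in SRC-3-deficient cells, against 10.83 and 10.44 in wild-type cells (0.40, SE 0.20, adjusted p = 0.462). Neither gene overlapped between groups. Both calls were also lost after a new quantile normalization (adjusted p = 0.0529 for Stat2 and 0.0537 for Herc6).

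Usp18, which removes ISG15 from proteins and blocks signalling at IFNAR2, was the most variable member. It had 11.41 and 10.49 in RORγt-deficient cells, against 9.77 and 9.74 in wild-type cells (1.20, SE 0.62, adjusted p = 0.218). Its SRC-3 experiment values were 12.004 and 10.98 in deficient cells, against 11.28 and 9.30 in wild-type cells (1.21, SE 0.62, adjusted p = 0.481). The pair of wild-type arrays of that experiment thus differed by 1.98, more than either fold change, and the groups overlapped. Trim25, a ubiquitin ligase gene in RIG-I signalling, had 11.68 and 11.42 in RORγt-deficient cells, against 11.27 and 11.22 in wild-type cells, and 11.33 and 11.11 in SRC-3-deficient cells, against 11.11 and 10.66 in wild-type cells. Its fold changes were 0.31 (adjusted p = 0.202) and 0.34 (adjusted p = 0.418), again without overlap but with equal nearest arrays at 2 decimals in the SRC-3 experiment. Trim30a gave 0.69 (adjusted p = 0.0594) and 0.41 (adjusted p = 0.49) for RORγt and SRC-3. Ifi35 had 11.11 and 10.87 in RORγt-deficient cells, against 10.69 and 10.64 in wild-type cells, and 10.96 and 10.90 in SRC-3-deficient cells, against 10.76 and 10.30 in wild-type cells, without overlap (0.32, adjusted p = 0.155, and 0.40, adjusted p = 0.316).

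All 3 PARP genes rose in RORγt-deficient cells, where 10.0% of all genes rose. Parp14 missed the threshold after a new quantile normalization (0.76, limma adjusted p = 0.056), where 10 members were called in all. Parp9, which pairs with the ubiquitin ligase DTX3L, had 11.16 and 11.05 on the deficient arrays, against 10.37 and 10.35 in wild-type cells (0.75, SE 0.14, adjusted p = 0.0109). Parp12, which acts on viral replication, had 9.32 and 8.71, against 8.06 and 7.84 in wild-type cells (1.06, SE 0.21, adjusted p = 0.0138). Parp14 had 11.06 and 10.74, against 10.07 and 10.16 in wild-type cells (0.79, SE 0.22, adjusted p = 0.0403). The same genes had no overlap in the SRC-3 experiment either, while 12.6% of all genes were higher without overlap in both experiments. There Parp12 was at 9.22 on both deficient arrays, against 8.64 and 8.19 in wild-type cells (0.80, SE 0.21, adjusted p = 0.177). Parp9 had 10.92 and 10.69 in SRC-3-deficient cells, against 10.60 and 10.17 in wild-type cells (0.42, SE 0.14, adjusted p = 0.288). Parp14 had 11.42 and 11.12, against 10.99 and 10.31 in wild-type cells (0.62, SE 0.22, adjusted p = 0.308).

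Tap1 and Psmb9, the divergent pair whose shared promoter is printed above, rose together in RORγt-deficient cells. Tap1, a subunit of the peptide transporter of antigen presentation, had 12.21 and 12.07 there, against 11.60 and 11.59 in wild-type cells (0.54, SE 0.10, adjusted p = 0.00975). Psmb9, an immunoproteasome subunit, had 11.55 and 11.35, against 10.89 and 10.77 in wild-type cells (0.62, SE 0.12, adjusted p = 0.0119). In SRC-3-deficient cells Tap1 had 12.12 and 11.97, against 11.90 and 11.65 in wild-type cells (0.27, SE 0.10, adjusted p = 0.325), and Psmb9 11.06 and 11.03, against 11.02 and 10.68 (0.20, SE 0.12, adjusted p = 0.547). Psmb8, another immunoproteasome subunit, had 11.58 and 11.51 in RORγt-deficient cells, against 11.36 and 11.32 in wild-type cells (0.20, SE 0.06, adjusted p = 0.0581), and 11.43 and 11.35 in SRC-3-deficient cells, against 11.23 and 11.14 in wild-type cells (0.21, SE 0.06, adjusted p = 0.243). None of the 3 overlapped in either experiment, while 12.6% of all genes were higher without overlap in both. Psmb8 had the smallest SE of all members.

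The last 2 members are Xaf1, a pro-apoptotic gene, and Rtp4, which encodes a chaperone of receptor transport. Xaf1 had 10.62 and 9.96 in RORγt-deficient cells, against 9.08 and 9.06 in wild-type cells (1.22, SE 0.36, adjusted p = 0.0516), and overlapped in the SRC-3 experiment (0.78, adjusted p = 0.426). Rtp4 had 8.02 and 6.83 in RORγt-deficient cells, against 6.34 and 6.61 in wild-type cells (0.95, SE 0.40, adjusted p = 0.144), and 8.70 and 8.10 in SRC-3-deficient cells, against 7.82 and 7.07 in wild-type cells (0.95, SE 0.40, adjusted p = 0.397).

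**Figure D4:**
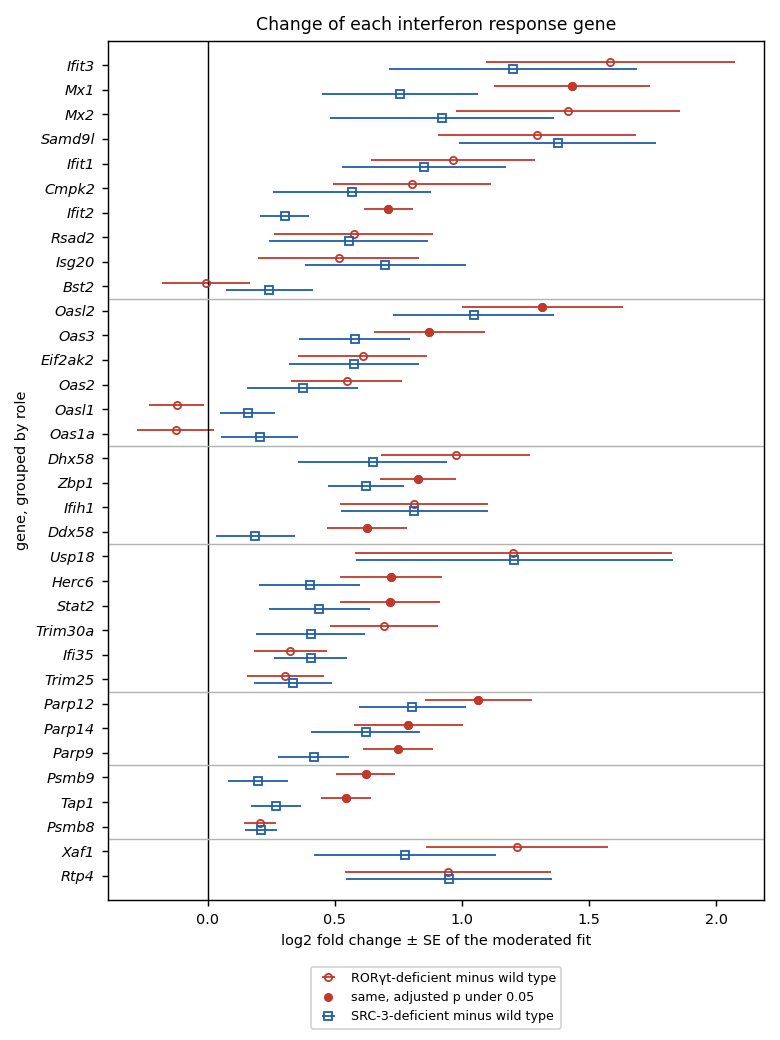
Log2 fold change of each of the 34 genes with the SE of the moderated fit (bars), RORγt-deficient minus wild type in red circles and SRC-3-deficient minus wild type in blue squares. Filled circles mark the 13 genes with an adjusted p under 0.05 in the RORγt comparison, and no gene is filled for SRC-3. Usp18 has the widest bar (SE 0.62).

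The filter on dim signals removed none of the 34 members. It was met on all 8 arrays by 23, and 9 were below it on both RORγt wild-type arrays. Oas2, Rtp4 and Samd9l met it through deficient arrays alone, so a higher signal there was a condition of their being tested.

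The fold changes of both comparisons, which share no arrays, correlated across members (Pearson's r = 0.83, Spearman's rho 0.85, n = 34 genes, against r = 0.51 across all genes, given as a description across genes). The SRC-3 fold change correlated as closely with the difference between the SRC-3 wild-type arrays (r = 0.83 across the 34 members), which it shares arrays with. The RORγt fold change was the larger for 23 of 34. No member passed a test of the difference between the 2 fold changes (limma, lowest adjusted p 0.197, for Ifit2, with 2 members at an unadjusted p under 0.05), against 1.67% of all genes. The effects of RORγt and SRC-3 deficiency on these genes are therefore not shown to differ in size.

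**Figure D5:**
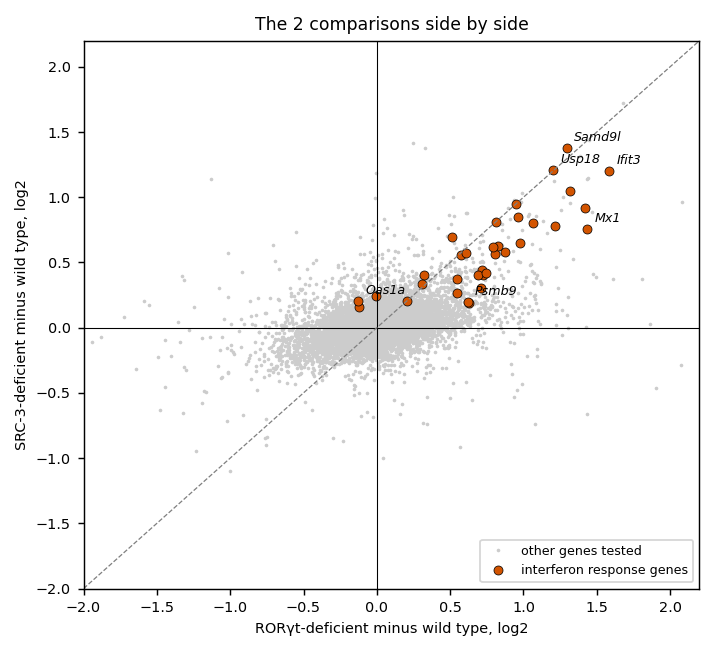
Log2 fold change in SRC-3-deficient cells (vertical) against that in RORγt-deficient cells (horizontal), both against their own wild type. Orange points are the 34 interferon response genes, grey points the other genes tested, of which 17 lie outside the axes, and the dashed line marks equal values. The 34 genes lie above 0 on the vertical axis, with 23 below the dashed line.

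Upstream of the members, both receptor chains rose in RORγt-deficient cells and the 4 listed interferon genes (Ifnb1, Ifna4, Ifnk and Ifne) were below the filter. Of the 7 measured receptor and signalling genes above the filter, Ifnar1 (0.38, adjusted p = 0.0101), Ifnar2 (0.25, adjusted p = 0.0362) and Irf7 (1.13, adjusted p = 0.0406) rose there and none fell. Over all genes, 10.0% rose and 9.37% fell. Irf7, the transcription factor that amplifies interferon production, had 11.32 and 10.66 on the RORγt-deficient arrays, against 9.91 and 9.82 on the wild-type arrays. None passed in SRC-3-deficient cells, where the lowest adjusted p was 0.131, for Ifnar2 (0.30), with 0.21 for Ifnar1 (adjusted p = 0.287) and 0.81 for Irf7 (adjusted p = 0.344). Ifnb1, the gene of interferon beta, lay between 5.77 and 6.23 on all 8 arrays, below the level of 7.85.

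Of 9 measured genes of nucleic acid sensing that are not members, Tlr3 and Tlr7 were below the filter. Among the other 7, 3 rose and 1 fell in RORγt-deficient cells, where 10.0% of all genes rose and 9.37% fell. They were the kinase gene Ikbke (0.47, adjusted p = 0.00691), Aim2, a sensor of DNA (0.28, adjusted p = 0.0386), the adaptor gene Myd88 (0.24, adjusted p = 0.0473) and, lower, the adaptor gene Ticam1 (-0.32, adjusted p = 0.0255). None passed in SRC-3-deficient cells, where Aim2 gave -0.24 (adjusted p = 0.266), Ikbke 0.21 (adjusted p = 0.327) and Tlr9 -0.12 (adjusted p = 0.542). Of the 10 brakes and ISG15 conjugation genes, 5 rose in RORγt-deficient cells and none fell. These were Samhd1, a nucleotide hydrolase (0.64, adjusted p = 0.0018), Uba7 (0.61, adjusted p = 0.0164) and Ube2l6 (0.99, adjusted p = 0.0433), the E1 and E2 enzymes of ISG15, Pias1 (0.25, adjusted p = 0.0187) and Socs3 (0.67, adjusted p = 0.0228). In SRC-3-deficient cells none passed, with values of 0.75 for Ube2l6 (adjusted p = 0.328), 0.33 for Uba7 (adjusted p = 0.339) and 0.17 for Samhd1 (adjusted p = 0.357).

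A further list of 22 measured interferon-stimulated genes had 9 that rose and 1 that fell in RORγt-deficient cells, with a median log2 fold change of 0.33. Over all genes, 10.0% rose and 9.37% fell. Both deficient arrays lay above both wild-type arrays for 15 of the 22, against 35.8% of all genes. They lay below both for 5 of the 22, against 3804 of 11128 genes. Those 5 were Ifitm1, Ifitm3 (-0.28), Ifitm2 (-0.20), Ly6e (-0.14) and B2m (-0.08). Gbp5, a guanylate-binding protein gene (0.89, adjusted p = 0.00299), Tapbp, the gene of tapasin (0.42, adjusted p = 0.00878), Trim26 (0.37, adjusted p = 0.015), Sp100 (0.48, adjusted p = 0.0165) and Pml (0.37, adjusted p = 0.0177) were among those that rose. Ifitm1, whose product blocks virus entry at membranes, fell instead, with 12.48 and 12.47 on the RORγt-deficient arrays, against 13.54 and 13.45 in wild-type cells (-1.02, adjusted p = 0.00175). Its fold change was -0.71 in SRC-3-deficient cells (adjusted p = 0.0544), with 11.83 and 11.67, against 12.62 and 12.31 in wild-type cells. None of this list passed in SRC-3-deficient cells, where the median was 0.25 and Gbp5 gave 0.59 (adjusted p = 0.0829) and Tor3a 0.39 (adjusted p = 0.107).

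Of 8 measured targets of interferon gamma above the filter, 5 rose in RORγt-deficient cells, where 10.0% of all genes rose. These were Gbp3 (0.92, adjusted p = 0.000616), Gbp4 (0.88, adjusted p = 0.00532), Irf1 (0.56, adjusted p = 0.00641), Gbp7 (0.77, adjusted p = 0.0104) and Iigp1 (2.40, adjusted p = 0.0133). Iigp1 was below the filter level on both RORγt wild-type arrays, at 6.81 and 6.89. Irgm1 (0.53) did not pass, nor did Cxcl10 (0.08) and Cd274 (0.03), whose groups overlapped. None passed in SRC-3-deficient cells, where Gbp4 gave 0.56 (adjusted p = 0.14), Gbp3 0.24 (adjusted p = 0.237) and Iigp1 1.51 (adjusted p = 0.26). Many genes answer to both types of interferon, so this list and the members are not independent.

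Most markers of other cell types that make or answer interferon were below the filter level. All 8 myeloid and conventional dendritic cell markers were below the filter level on both arrays of every group, with means between 6.78 and 6.92, as were all 5 NK cell markers, with means between 5.85 and 6.30. Of 4 plasmacytoid dendritic cell markers, 1 (Tcf4, between 10.28 and 10.53) was above it on all 8 arrays, and Siglech, which defines these cells, averaged 7.17 in RORγt-deficient cells against 7.22 in RORγt wild-type cells, and 7.29 in SRC-3-deficient cells against 7.26 in SRC-3 wild-type cells. Of 4 measured B cell markers, 3 were below it on both arrays of every group. Of the 2 CD8 T cell markers, Cd8a was below it and Cd8b1 above it on all 8 arrays. Cd8b1 had 8.91 and 8.75 in SRC-3-deficient cells, against 8.54 and 8.29 in wild-type cells, without overlap, and its part in the SRC-3 values was not tested. None of the markers in these lists passed in either comparison, in a limma fit without the filter. The Th17 markers did move with genotype: their mean was 8.79 and 8.70 on the RORγt-deficient arrays, against 11.29 and 11.15 on the wild-type arrays, and 10.12 and 10.17 on the SRC-3-deficient arrays, against 10.90 and 10.70 on the wild-type arrays. In the same fit 4 of the 5 were called lower in RORγt-deficient and 2 in SRC-3-deficient cells. Among all 19938 genes of that fit, 894 and 5 were called lower. The part of the Th17 markers in the values of the interferon response genes was not tested.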

How the data were processed

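Total RNA of 8 samples was hybridised to Affymetrix Mouse Gene 1.0 ST arrays, 1 per sample. The deposited values are log2 signals. Per the submitters' processing notes the authors made these log2 values by RMA with Affymetrix Expression Console, version not given. Of 35556 probe sets, 21789 had 1 symbol, 1621 several and 12146 none, and the brightest probe set stood for a gene. Genes had to reach 7.85, the median signal over the table, on at least 2 arrays, which left 11128. Differences were tested with limma 3.58.1 in R 4.3.3 on all 8 arrays with 4 group means (4 residual and 3.53 prior degrees of freedom), with Benjamini-Hochberg adjustment over 11128 genes at 0.05. The fit was tested on simulated data. The number of arrays limits precision. Levels were not compared between experiments.

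The members, the pathway lists and the marker lists were chosen with earlier results of these data known. Genes outside the members were named when they passed the test in a pathway list (up to 6 by p), were among its 3 lowest p otherwise, or check the labels. Some others were named as genes of a list that did not rise past the threshold. A few other genes are not reported here. Alternatives covered the filter, normalization, centring, probe set choice, fit, array weights, a replicate block and each array left out.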

Additional observations from a re-analysis of the deposited data

Results flagged for a closer look

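Of the 186 genes that differed between the comparisons by limma's test of the difference (SRC-3 effect minus RORγt effect), 3 are among the genes named above. For Gbp3, a target of interferon gamma, the difference was -0.68 in log2 (adjusted p = 0.0244), with the rise larger in RORγt-deficient cells. Il17a differed by 3.01 (adjusted p = 0.00343), since its fall was larger in RORγt-deficient cells. Ncoa3 differed by -0.76 (adjusted p = 0.0394), being lower in SRC-3-deficient cells.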

How the results depend on the processing

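All 34 measured members kept a log2 fold change above 0 in SRC-3-deficient cells under every alternative in which they were tested, and the median over members stayed above 0 in both comparisons, between 0.52 and 0.93 for RORγt and between 0.22 and 0.89 for SRC-3 with 1 array left out. The count of members called for RORγt was 28 with the 4 arrays of the experiment alone and 25 with array weights, against 13, and 1 to 22 with 1 array left out. No member was called for SRC-3 by limma in any fit but the replicate block, and 16 had an unadjusted p under 0.05 in the 8-array fit. Over all genes, the 2157 RORγt calls became 3389 with 4 arrays alone and 3679 with array weights (486 to 2539 with 1 array left out). The 25 SRC-3 calls became 14 with the stricter filter of 9.78, 0 with 4 arrays alone (827 at an unadjusted p under 0.05), 47 with a trended robust prior and 10 with array weights (0 without SRC-3 wild-type replicate 2, to 61 without replicate 1). The 186 difference calls became 119 with the stricter filter (15 to 264 with 1 array left out). Splits also moved: SRC-3 calls were 21 higher and 4 lower but 16 and 6 after quantile normalization, and difference calls 103 and 83 but 74 and 97 with one common median and 60 and 72 after quantile normalization. For RORγt, the log2 fold change of Bst2 turned to 0.015 with one common median, and with 1 array left out Bst2 ran from -0.23 to 0.21, Oas1a from -0.35 to 0.10 and Oasl1 from -0.28 to 0.042, each above 0 without RORγt-deficient replicate 2. The cause was not tested.

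The replicate numbers do not pair the samples by label. The deviations of same-numbered arrays correlated with r = 0.54 across all genes in the SRC-3 experiment and 0.00 in the RORγt experiment. With the replicate number as a block, calls were 3411 for RORγt, 301 for SRC-3 and 945 for the difference, and member calls 30, 9 and 1.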
